A study of Gallus gallus with 12 samples.

Results

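A set of 79 genes, of the 18241 numbered genes in the table, was present in the immature magnum of the hen, was at least 4-fold lower in the magnum of older hens, and kept about the same mean level in the uterus. The 79 genes were selected on the deposited values themselves. A member had a mean of at least 100 in the magnum at 120 days, and that mean was at least 4 times the mean at 300 days plus 1. The lowest of its 3 magnum libraries at 120 days lay above the highest at 300 days, and the ratio of its uterus means, 300 over 120 days, lay between 0.67 and 1.5. Of the 18241 genes, 10962 met the level minimum, 606 of these also the fold, and 556 of these also the separation of libraries. The uterus window then left 79 of the 556, since the uterus ratio was below 0.67 for 447 and above 1.5 for 30. The lower level in the magnum and the steady uterus mean are therefore how the genes were chosen, and they are given below as a description.

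The magnum is the long glandular segment of the bird oviduct. Its tubular glands and surface epithelium make and release the proteins of egg white, and steroid hormones drive its growth before the first egg. The uterus, or shell gland, lies further down, holds the egg while the shell is laid down, and moves calcium and carbonate across its epithelium. Both segments contain secretory and ciliated epithelium over stroma, vessels and smooth muscle.

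The 12 libraries came from oviduct of Lohmann layers, a commercial egg-laying strain of Gallus gallus, with no other genotype or treatment stated. They form 4 groups of 3: magnum at 120 days, magnum at 300 days, uterus at 120 days and uterus at 300 days, called young and older below. The series title sets hens before lay against hens in lay, and its design text names the function of the segments and the defence of oviduct and egg as the questions. The labels do not state whether replicates are separate hens, so p-values measure the spread between these samples only, which may be technical.

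Values are scaled counts, which are read counts that the authors had brought to a common level, so they show a gene relative to a typical gene of the same library. Column totals were 14499548 to 25071610 in the magnum at 120 days, 44995822 to 77432154 in the magnum at 300 days, and 14543795 to 17274374 in the uterus. These totals are not sequencing depth. In the 3 magnum libraries at 300 days, 96% to 97% of the low values fell on regular steps. From these steps the worth of 1 read was estimated at 2.267, 2.372 and 1.952 scaled counts. In magnum replicate 1 at 120 days the estimate was 1.167, with 99.1% on steps. Numbers of reads given below rest on these estimates. Magnum replicate 1 at 120 days stood apart from the other 2 of its group, with the total of 25071610 against 14499548 and 14557061. The files pair no identifier with a gene symbol, and 0 of the 19820 identifiers, members included, matched the reference table of chicken genes. Genes are therefore called by their identifiers, without names, positions or functions, and neither the labelled tissue nor other cell types could be checked against marker genes.

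Summed over the 79 genes, the magnum libraries at 120 days held 34904, 76164 and 68700 scaled counts, and those at 300 days held 11500, 8249 and 11773. The uterus libraries held 86762, 79997 and 91670 at 120 days and 84629, 90387 and 81522 at 300 days. The sum was thus nearly flat across the 6 uterus libraries and lowest in the 3 magnum libraries of the older hens. Replicate 1 of the magnum at 120 days lay about midway between the ages. As a share of each library's total, the members made up 0.139%, 0.525% and 0.472% of the young magnum libraries and 0.0107% to 0.0262% of the older ones. They took 0.472% to 0.630% of the uterus libraries. A typical gene also had a lower share in the older magnum. With values divided by library totals, the median log2 difference in the magnum was -1.79 over all genes tested and -4.19 over the members. In bulk tissue, fewer cells of a type and less RNA per cell cannot be told apart.

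**Figure D1:**
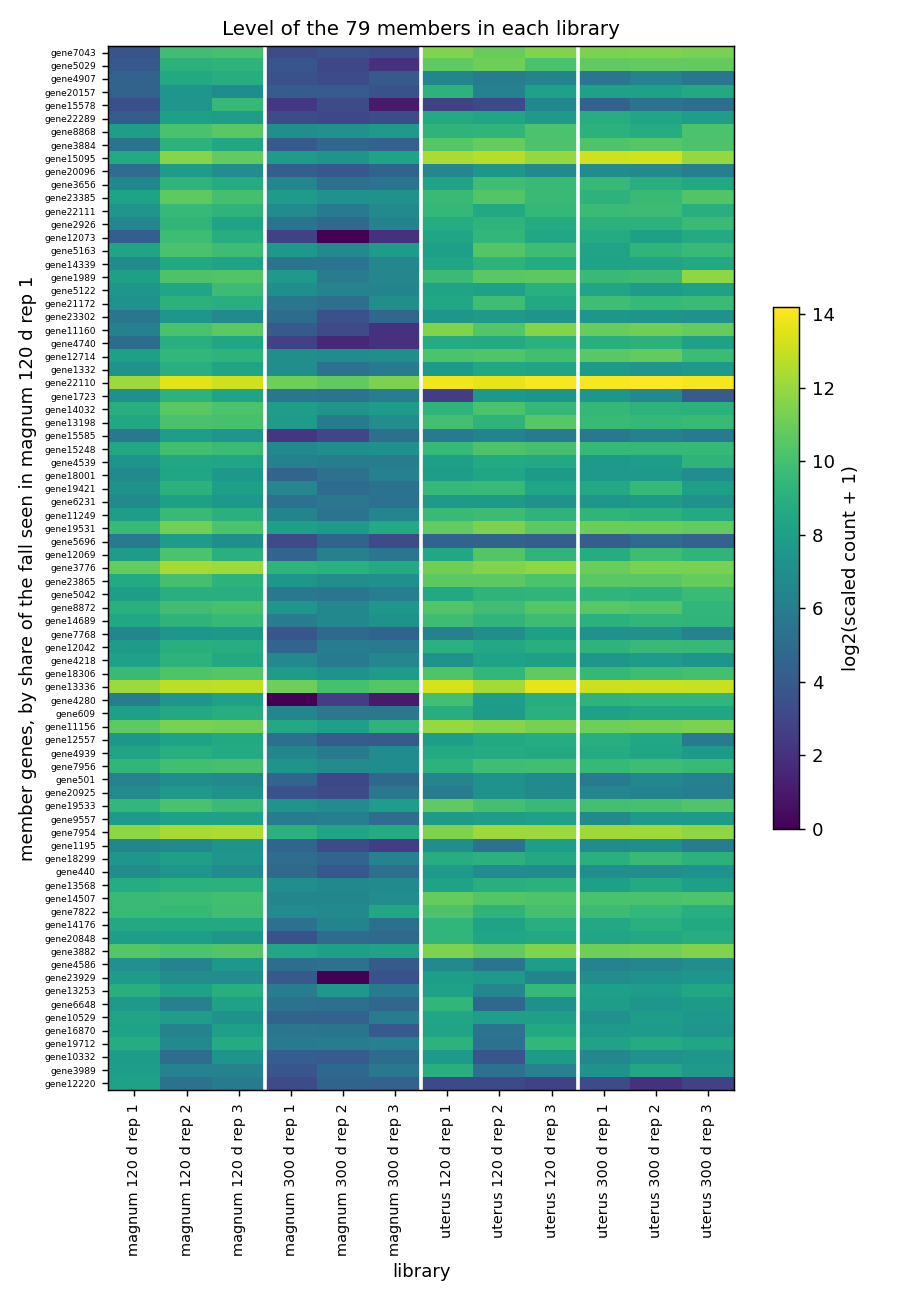
Level of each of the 79 genes (rows) in the 12 libraries (columns), as log2(scaled count + 1). Rows run from genes whose value in magnum replicate 1 at 120 days was nearest to the 300-day level to those farthest from it. The 3 magnum columns at 300 days are the darkest for most rows, and the first magnum column at 120 days is darker than the other 2 for most.

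Per gene, the median of the members' group means was 388 scaled counts in the magnum at 120 days (range 102 to 8763) and 55.0 at 300 days (range 2 to 2174). In the uterus it was 461 at 120 days and 442 at 300 days, with ranges of 7.33 to 15402 and 6 to 17412. Over all 14883 genes tested, the corresponding medians were 456, 405, 463 and 428, near those of the members except in the older magnum. The rule sets a level minimum in the young magnum, a lower older magnum and similar uterus means. The genes tested met no such criteria, so nothing is read from this comparison. The ratio of magnum means, 120 over 300 days, had a median of 6 and ran from 4.03 to 150. It was below 5 for 23 members, at least 8 for 20 and at least 16 for 10. On a per-length scale, the median FPKM (fragments per kilobase, as scaled by the authors) of the members was 4.53 and 0.669 in the magnum at 120 and 300 days. In the uterus it was 4.98 and 4.74. Over all genes tested the medians were 6.16, 6.28, 5.92 and 5.74 in the same order. Like the scaled counts, FPKM thus held a typical gene at a similar level in each group and is no check on library size.

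In the limma fit of all 12 libraries on log2(scaled count + 1), the members' magnum difference, 300 minus 120 days, had a median of -2.45, with quartiles of -3.07 and -2.22. Over all genes tested the median was -0.03. After adjustment over all genes, 74 of the 79 fell in the magnum, where 13.6% of the 14883 genes tested were called lower. The rule used this contrast, so nothing is read from that count. The members not called were gene1723, gene19712, gene6648, gene10332 and gene3989, listed here after their values were seen. Dividing each library by its own total moved the median of all genes to -1.79 and that of the members to -4.19. Upper quartile rescaling moved them to -0.26 and -2.68. Either rescaling shifts members and all genes together by construction.

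The uterus difference had a median of -0.12 over the members and 0.02 over all genes. By limma with adjustment, 0 of the 79 were called in the uterus in either direction, where 6.54% of all genes tested were called higher and 7.21% lower. At an unadjusted p below 0.05 there were 0 members, against 30.4% of all genes, and the uterus window of the rule bears on both counts. The uterus ratio had a median of 0.847, below 1 for 61 members and at or above 1 for 18. Of the 556 genes that met the magnum criteria, 447 lay below the window and 30 above it. The window thus cuts a list that lies mostly on the lower side. On the log2 scale of the fit, 50 members lay below 0 and 29 (36.7%) above. Over all genes tested, 51.5% lay above 0 on that scale. Those genes met no such criteria, so nothing is read from these counts. The 3 older uterus libraries lay above the 3 younger ones for gene12042 alone, against 20.4% of all genes. They lay below them for gene9557, gene10529 and gene18001, named after their values were seen, against 18.9% of all genes. The window bounds the means and not the single libraries. At 120 days the highest uterus library was at least 2 times the lowest for 30 members and at least 5 times for 12, and at 300 days for 15 and 2.

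**Figure D2:**
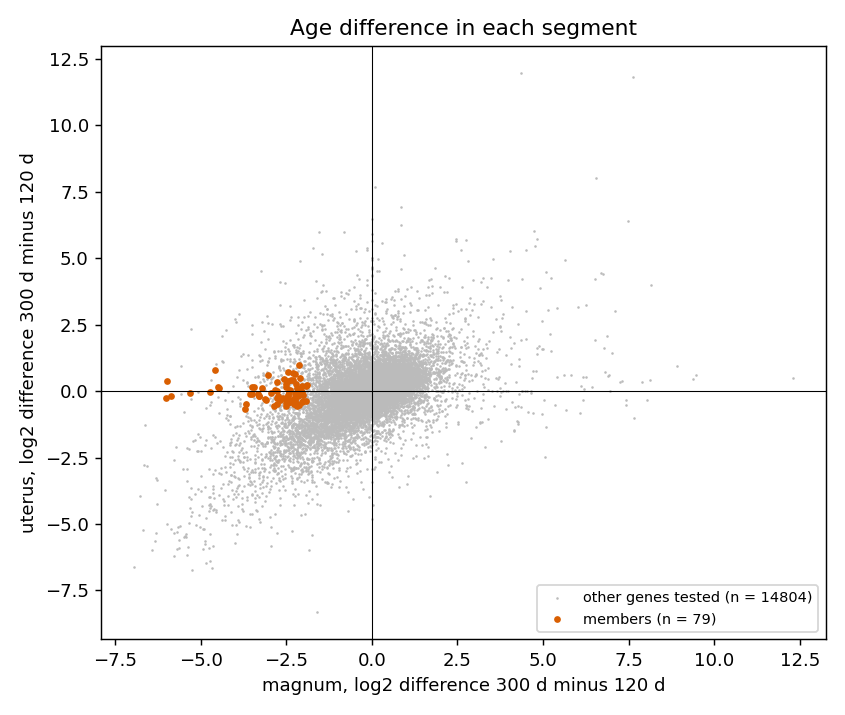
Log2 difference between 300 and 120 days in the magnum (x axis) and in the uterus (y axis) for the 79 members and the other genes tested. By the rule that chose them, the members lie left of about -1.9 on the x axis and near 0 on the y axis, while many other genes low in the older magnum also lie below 0 in the uterus.

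By scaled count, the 3 most abundant members in the magnum at 120 days were gene22110, gene13336 and gene7954. In the magnum, gene22110 stood at 4508, 12501 and 9279 scaled counts at 120 days and at 2110, 1690 and 2723 at 300 days. Its uterus values were 15350, 13688 and 17168 at 120 days and 16961, 18807 and 16468 at 300 days. All 6 uterus libraries lay above all 6 magnum libraries. The magnum means were 8763 ± 4021 and 2174 ± 519 (SD, n = 3 each), a log2 difference of -1.92 ± 0.32 (SE). Per length, it reached 126 ± 51.4 FPKM in the young magnum and 242 ± 17.2 in the older uterus (SD, n = 3 each), and it had the highest FPKM means among the members in both groups.

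For gene13336 the magnum values were 4469, 6939 and 7379 at 120 days and 2133, 1065 and 1427 at 300 days. Its uterus values spread from 5050 in replicate 2 to 12841 in replicate 3 at 120 days, and lay at 8845, 8920 and 8087 at 300 days. The uterus ratio of 0.911 thus came from a wide younger group and a narrow older one. The log2 difference in the magnum was -2.05 ± 0.35 (SE).

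A sharper drop with tight libraries was that of gene7954, from 3489, 5129 and 5586 scaled counts at 120 days to 564, 313 and 433 at 300 days. In the uterus it held 2799, 4495 and 4456 at 120 days and 4710, 4570 and 3683 at 300 days. Magnum and uterus overlapped at 120 days, while at 300 days the lowest uterus library lay far above the highest magnum library. The magnum difference was -3.45 ± 0.27 on the log2 scale (SE). Described because its identifier number lies 2 away, gene7956 had a smaller magnum difference, -2.78 ± 0.26 on the log2 scale (SE). It had 659, 967 and 1092 scaled counts in the younger magnum, 160, 113 and 117 in the older magnum, and uterus means of 816 ± 215 and 807 ± 78.8 (SD, n = 3 each). Over the 12 libraries the log2 values of the pair correlated at 0.994 (Pearson), a description over libraries that include the groups of the rule.

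On the scale of log2(scaled count + 1), the largest differences in the magnum belonged to gene12073, gene4280 and gene11160, all close to the detection limit in the older hens. The order depends on the scale. With a pseudocount of 10, gene7043 (-3.83) lay beyond gene4280 (-3.71), and on log2(FPKM + 1) gene7954 (-2.78) and gene7043 (-2.52) lay beyond gene11160 (-2.09), gene12073 (-1.24) and gene4280 (-0.77), whose call was lost there. In the younger magnum gene12073 was at 18, 871 and 462 scaled counts, and in the older magnum at 6, 0 and 3. These last values amount to an estimated 5 reads in all. Its uterus values were 323, 667 and 370 at 120 days and 421, 271 and 415 at 300 days. The segments therefore overlapped in the young hens and were far apart in the older ones. The log2 difference in the magnum was -6.02 ± 1.16 (SE), but -4.15 with a pseudocount of 10. Leaving out magnum replicates 1 to 3 at 120 days in turn gave -7.71, -4.95 and -5.41.

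For gene11160 the magnum went from 71, 1108 and 1546 scaled counts to 15, 9 and 3, an estimated 13 reads over the 3 older libraries. Its uterus held 2970, 1334 and 2974 at 120 days and 1895, 2221 and 1872 at 300 days. The lowest older uterus library, at 1872, thus lay far above the highest older magnum library, at 15. The magnum log2 difference was -5.85 ± 0.93 (SE), or -4.83 with a pseudocount of 10. Omission of the same 3 libraries in turn gave -7.25, -5.28 and -5.04. For gene4280 the magnum values were 62, 169 and 276 at 120 days and 0, 5 and 1 at 300 days, an estimated 3 reads. Its log2 difference of -5.97 ± 0.72 (SE) depends on the pseudocount and is no measure of the fold. In the uterus gene4280 stood at 1022, 239 and 466 and later at 601, 641 and 649, with a narrow older group. Over the members, the older magnum libraries together gave an estimated 3 to 3039 reads per gene, with a median of 76.0 and fewer than 30 reads for 18 of the 79. A value of 0 in at least 1 older magnum library was found for gene12073, gene4280 and gene23929.

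**Figure D3:**
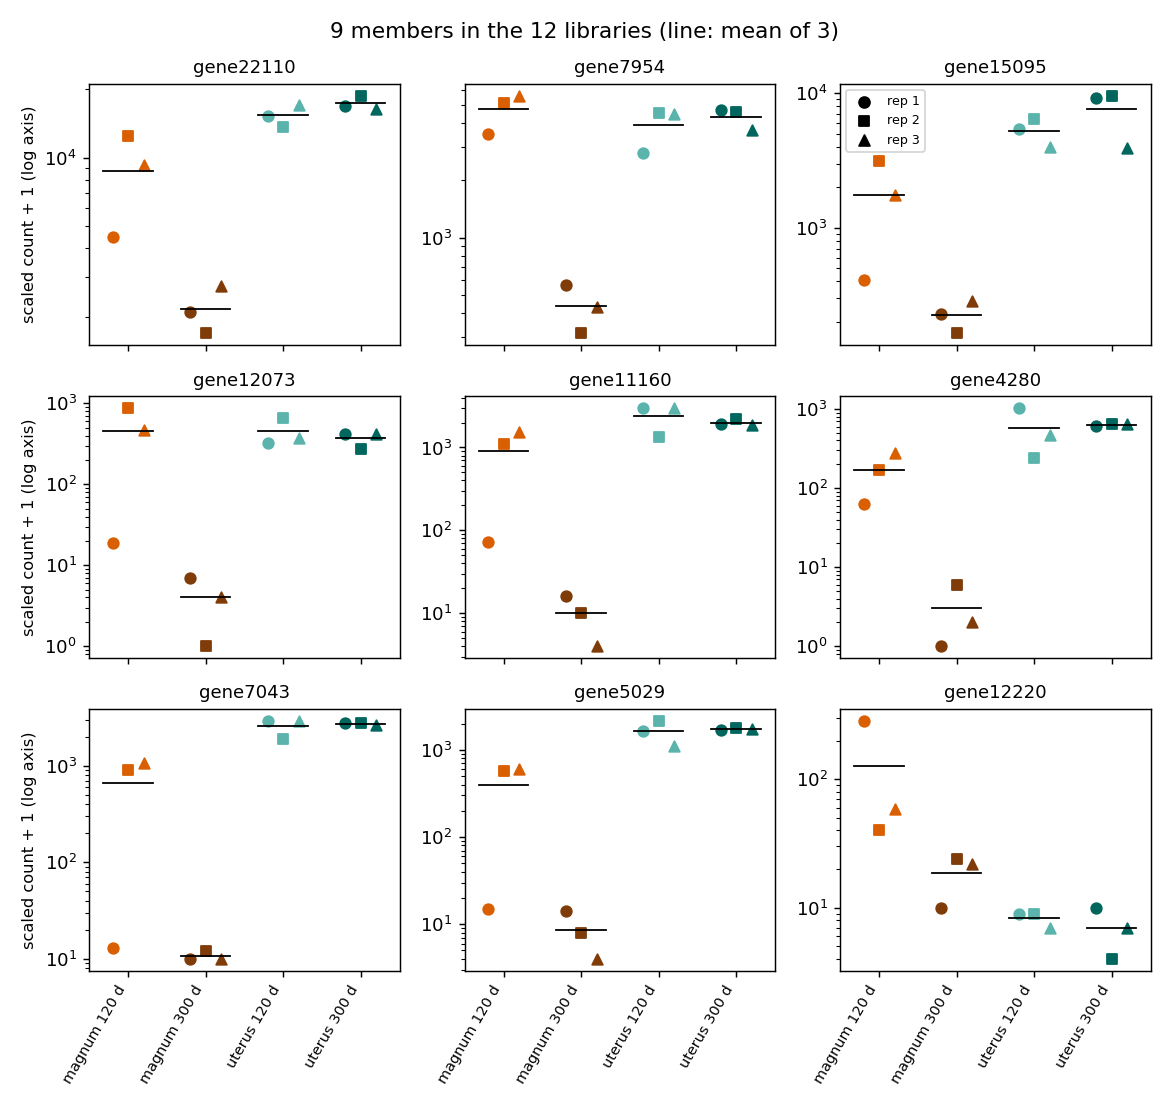
Scaled count plus 1 on a log axis for 9 members in the 12 libraries, with 1 marker per replicate and a line at the mean of 3. For gene7043 and gene5029 the round marker of magnum replicate 1 at 120 days lies with the 300-day magnum values, and for gene12220 the uterus mean lies below the magnum mean at both ages. At 300 days the highest uterus value of gene12220 equals its lowest magnum value.

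The 3 young magnum libraries did not agree on these genes. For each library, its position was measured on the log2 scale between the other 2 libraries of its group (0%) and the 300-day mean (100%). The median position over the members was 41.7% for replicate 1, -31.7% for replicate 2 and -21.1% for replicate 3. Replicate 1 was the lowest of the 3 for 65 of the 79 members (82.3%), against 39.5% of all genes tested. It was also the lowest for 89.1% of the other 477 genes that met the magnum criteria, where its median position was 28.7%. A low replicate 1 was thus not particular to the members within the magnum. Its position was above 50% for 28 members and above 80% for 5, which were gene7043, gene5029, gene4907, gene20157 and gene15578. The library's higher total moved with these values, and its part in the result was not tested.

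**Figure D4:**
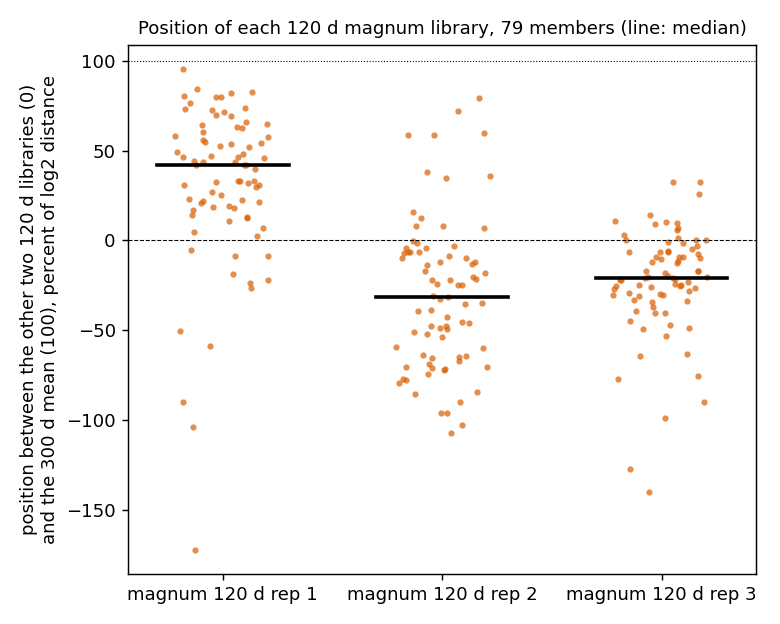
Position of each young magnum library for the 79 members, in percent of the log2 distance from the other 2 young libraries (0, dashed) to the mean at 300 days (100, dotted). Points are genes and bars are medians, at 41.7%, -31.7% and -21.1% for replicates 1 to 3.

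In gene7043 this was most marked, with 12, 903 and 1078 scaled counts in the young magnum and 9, 11 and 9 in the older one. Replicate 1 held an estimated 11 reads, near the 4 to 5 of each older library, and lay 95.6% of the way to the 300-day mean. The uterus of gene7043 held 2896, 1914 and 2911 scaled counts at 120 days and 2750, 2762 and 2620 at 300 days. No uterus library was low, replicate 1 included. The magnum log2 difference of -4.46 ± 1.24 (SE) became -6.54, -3.48 and -3.35 when young magnum replicates 1 to 3 were left out in turn. The same form was seen in gene5029, at 14, 566 and 605 in the young magnum and 13, 7 and 3 in the older one. Its uterus held 1629, 2142 and 1101 and later 1698, 1795 and 1750 scaled counts. The magnum log2 difference of gene5029 was -4.50 ± 1.10 (SE), and the same omissions gave -6.26, -3.64 and -3.59. In a fit of the 2 magnum groups alone, the calls of gene7043, gene5029, gene12220 and gene15578 in the magnum were lost, as they were without magnum replicate 3 at 120 days. Without replicate 2 those of gene7043, gene5029 and gene15578 were lost, and without replicate 1 that of gene12220.

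In the uterus, replicate 1 at 120 days was the lowest of its 3 libraries for 26 of the 79 members (32.9%), close to the 34.4% of all genes tested. All 26 were also lowest in magnum replicate 1, as were 65 of the 79 members in all. Among the other 477 genes that met the magnum criteria, uterus replicate 1 was the lowest for 78.6%. The uterus window of the rule bears on this contrast, since the members lie inside it and the other 477 outside. How far it sets the contrast was not tested. Of the 10 members lowest in magnum replicate 2, 9 were also lowest in uterus replicate 2. An example is gene13253, with 500, 273 and 489 scaled counts in the young magnum and 277, 93 and 734 in the young uterus. Of the 4 members lowest in magnum replicate 3, 2 were also lowest in uterus replicate 3. These overlaps were not counted over all genes, so they are not read as particular to the members. Same-numbered libraries of the 2 segments thus deviated together at 120 days, with correlations of 0.316, 0.642 and 0.380 over the members and 0.361, 0.591 and 0.390 over all genes tested, which are not independent replicates.

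At 120 days the members were on average present at similar levels in both segments. The difference uterus minus magnum was not a criterion of the rule, but the rule used the values of both groups compared. It asks for a high young magnum and so favours a lower uterus. Its uterus window also bears on the young uterus values, and how far it sets this difference was not tested. The uterus mean of scaled counts was above the magnum mean for 58 of the 79 members, at least 2 times as high for 11 and at most 0.5 times as high for 6. On the log2 scale, 53 lay above 0 and 26 below, with a median of 0.33, where 49.3% of all genes lay above 0 with a median of -0.01. No member passed the limma test in either direction (0 of 79), where 0.242% of all genes were called higher and 0.376% lower in the uterus. With so few genes called, the absence of calls does not show equal levels. At an unadjusted p below 0.05 there were 13 higher and 2 lower members, together 15 of 79, against 9.62% of all genes. All 3 uterus libraries lay above all 3 magnum libraries for 11 members (13.9%, against 5.78% of all genes). They lay below for gene5696 and gene12220 (2.53%, against 7.49% of all genes). The genes tested met no criteria of the rule, so nothing is read from these comparisons with all genes.

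The lean toward the uterus was smaller without magnum replicate 1, the lowest of its group for 65 of the 79 members. With that library left out the median was 0.02, with 41 members above 0 and 38 below. Leaving out a low library raises the magnum mean, so this follows in part from its position. The cause of the lean was not tested. In that fit 4 were called, gene3884 and gene7043 higher and gene4907 and gene5696 lower in the uterus. With magnum replicate 2 left out the median was 0.56 with 57 above 0, and gene3884, gene23865 and gene12220 were called. With replicate 3 left out it was 0.49 with 60 above 0 and 0 called. With uterus replicate 2 of this age left out, gene3882 was called. These genes are named after their values were seen. For the fits with a library left out, the share of all genes called was not counted, so nothing is read from these calls. Same-numbered libraries deviated together at this age, but the main fit took no pairs. The fit with a replicate block within each age also called 0.

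The widest gaps toward the uterus at 120 days belonged to gene7043, with a log2 difference of 3.44 ± 1.24 (SE, limma adjusted p = 0.341), and gene5029, with 3.18 ± 1.10 (SE, limma adjusted p = 0.316). Both gaps narrowed without magnum replicate 1, the lowest of its group for both genes. Without that library the difference of gene7043 was 1.36 and passed (limma adjusted p = 0.0312), and its alternatives ranged from 0.0312 to 0.746. For gene5029 they ranged from 0.171 to 0.712.

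Toward the magnum the widest gap was that of gene12220, at 283, 39 and 58 scaled counts in the young magnum and 8, 8 and 6 in the young uterus. Its older magnum held 9, 23 and 21 and its older uterus 9, 3 and 6. This gene was steady in the uterus by scaled count only, at a level near the bottom of the scale. Its uterus means were 0.113 ± 0.0426 FPKM at 120 days and 0.0453 ± 0.0177 at 300 days (SD, n = 3 each), outside the window. Its magnum mean rested on replicate 1. The log2 difference was -3.40 ± 0.71 (SE, limma adjusted p = 0.0663, alternatives 0.0422 to 0.330), and it passed without magnum replicate 2. The next was gene15578, at 10, 168 and 735 in the young magnum, 4, 9 and 1 in the older magnum, 6, 8 and 98 in the young uterus and 21, 41 and 34 in the older uterus. Its log2 difference of -2.59 ± 1.38 did not pass (SE, limma adjusted p = 0.598, alternatives 0.168 to 0.962). Another low one was gene5696, at 59, 233 and 136 in the young magnum, 9, 23 and 9 in the older magnum, 23, 22 and 18 in the young uterus and 19, 30 and 21 in the older uterus. It was called lower in the uterus at 120 days with a pseudocount of 10. A uterus mean under 100 at both ages was found for 5 members in all, these 3 with gene4907 and gene15585. At the other end, 18 members had a uterus mean of at least 1000 at both ages.

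By scaled count, the most abundant members in the uterus at 300 days were gene22110, gene13336 and gene15095. For gene15095 the uterus held 5401, 6442 and 3959 scaled counts at 120 days and 9179, 9604 and 3941 at 300 days. Its magnum held 410, 3116 and 1758 and later 228, 163 and 285. The uterus ratio of 1.44 was near the upper limit of the window, but the older uterus libraries straddled the younger ones. Every uterus library lay above every magnum library. The magnum log2 difference was -2.57 ± 0.60 (SE), and it was -3.41 without magnum replicate 1 at 120 days and -1.95 without replicate 2.

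At 300 days the segments stood apart, as the rule largely sets. The log2 difference uterus minus magnum had a median of 2.64 over the members and 0.02 over all genes. By limma, 69 of the 79 were higher in the uterus, where 12.9% of all genes tested were. The 3 uterus libraries lay above the 3 magnum libraries for 76 members, against 23.6% of all genes, and the exceptions were gene1723, gene5696 and gene12220. For gene12220 the uterus mean was below the magnum mean. The age change differed between the segments, as the interaction of age and segment, for 25 of the 79, where 1.61% of all genes tested had a uterus change called above that of the magnum. Both terms of that interaction were criteria of the rule, so nothing is read from the count. It varied with the library left out. Among the young magnum libraries, leaving out replicate 1 gave 57, replicate 2 gave 11 and replicate 3 gave 8. Among the older magnum libraries, leaving out replicate 1 gave 16 and replicate 2 gave 11. For the young uterus, omission of replicate 2 gave 14 and of replicate 3 gave 15, and for the older uterus, omission of replicates 1 to 3 in turn gave 10, 7 and 12. Omission of older magnum replicate 3 or of young uterus replicate 1 kept the count within 1.5 times. The fit with a replicate block within each age gave 47. In these alternative fits the share of all genes called was not counted. A change in calls over all genes and one in the members cannot be told apart here.

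**Figure D5:**
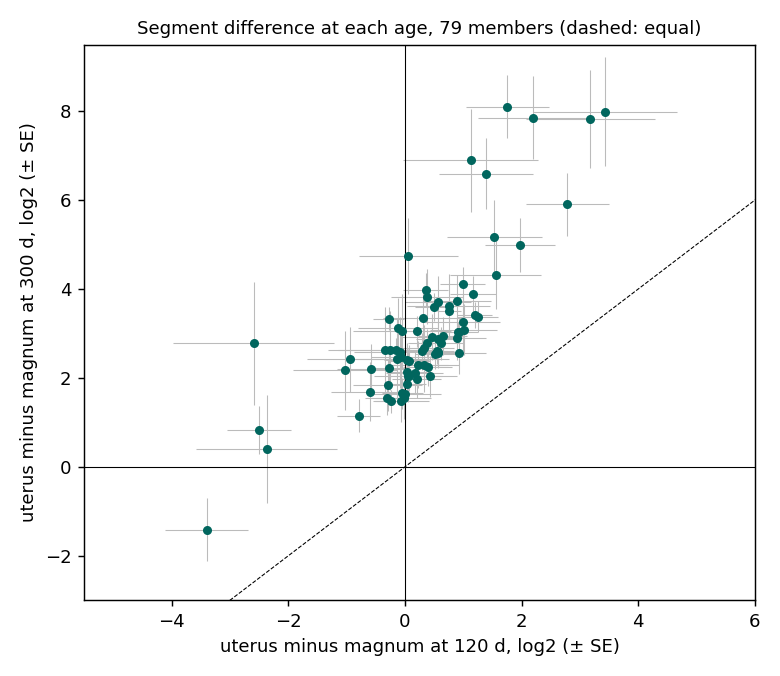
Log2 difference uterus minus magnum at 120 days (x axis) and at 300 days (y axis) for the 79 members, with SE bars from the limma fit of all libraries. All points lie above the dashed line of equal difference, which the rule sets, and most lie within about 1 of 0 at 120 days. At that age 4 lie below -2, and gene7043 (3.44), gene5029 (3.18), gene3884 (2.78) and gene11160 (2.19) lie farthest toward the uterus.

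The deposited FPKM values, estimated from the same reads and on a similar common scale, gave a similar picture with a smaller margin. The FPKM ratio of magnum means had a median of 5.51, was at least 4 for 64 of the 79 members and under 2 for 0. The FPKM uterus ratio lay in the window for 76, and both held for 62. Gene length was not itself a criterion of the rule. Its level minimum is on scaled counts, though, which are not divided by length, so longer genes can pass more easily. The median length was 4575 bases over the members, with a range of 705 to 23642. Over all genes tested it was 3553 bases, and over the other 477 genes that met the magnum criteria it was 3943. Those 477 genes met the same level minimum. What sets the length of the members was not tested.

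Several members carried identifier numbers close to each other. A difference of at most 7 from another member was found for 18 of the 79 (22.8%), in 9 pairs. Over all 556 genes that met the magnum criteria, members included, 210 (37.8%) had such a near gene, in a list that is larger and so fills the numbers more densely. With no other listed gene between them were gene7954 and gene7956, gene19531 and gene19533, and gene22110 and gene22111, whose log2 values correlated at 0.994, 0.953 and 0.962 over the 12 libraries. What the numbers stand for is not given in the sources used here, and reads shared between similar or overlapping genes could not be judged. In the young magnum gene22111 held 166, 743 and 600 scaled counts and in the older one 113, 59 and 111, with uterus means of 599 ± 183 and 716 ± 204 (SD, n = 3 each). On the per-length scale gene22111 stood at 4.81 ± 2.95 FPKM in the young magnum against 126 ± 51.4 for gene22110 (SD, n = 3 each). The pair thus differed widely in level. The rule sets much of the likeness in course between any 2 members, so nothing is read from these correlations.

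The rule draws a line through a continuum. Just inside the fold of 4 lay gene13253, with a magnum ratio of 4.02 against the mean plus 1, and gene12714, with 4.03. Just outside it lay gene14321, with 3.98, and gene9723, with 3.97, both of which met every other criterion. Just outside the uterus window lay gene5612, with a uterus ratio of 0.665, and gene17439, with 1.52. The lowest young magnum value was at least 2 times the highest older one for 44 members and under 1.5 times for 23. In gene13253 the older magnum held 61, 192 and 58 scaled counts against a lowest young value of 273. In gene14321, left out, it held 70, 37 and 56 against a lowest young value of 143.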

How the data were processed

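Messenger RNA libraries of magnum and uterus were sequenced from total RNA, per the labels' protocols, and the submitters' processing notes name Cufflinks 2.0.2, GATK 3.8, TopHat2 2.0.8, Trimmomatic 0.32 and FastQC 0.11.6, with no role or order. Genome build, annotation and counting were not given in the sources used here. The deposited gene table was treated as scores, that is counts already scaled and cut to whole numbers by the authors: totals differ widely while a typical gene has the same level in every column, and 4 magnum columns skip numbers at regular steps. One read is worth an unknown amount in the other 8, whose depth is unknown. The second deposited table holds FPKM values, made by the authors on nearly 1 common scale.

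The test was limma 3.58.1 in R 4.3.3, with a mean-dependent prior, on log2(scaled count + 1), two-sided, for the 14883 genes with at least 10 in at least 3 libraries. All 79 members passed this filter. A single model with 4 group means was fitted to the 12 libraries, and a Benjamini-Hochberg adjusted p below 0.05 over all genes was the threshold. The code was tested on simulated data. Summaries used Python 3.11.15, pandas 2.3.3 and NumPy 2.4.6.

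The members and the rule for named genes were chosen with earlier results of these data known. Named were the 3 members highest in the young magnum, the 3 with the largest fitted magnum difference, the 3 highest in the older uterus, the 2 at each end of the segment difference at 120 days, and genes at the edges of the rule. Others were named after their values were seen. Marker lists for ciliated, muscle, immune, stromal, proliferating, magnum gland and shell gland cells had 0 identifiers to match and gave no value. At 120 days, libraries with the same number in both segments had correlated deviations (0.361, 0.591 and 0.390 over genes). The main fit took no pairs, so its segment and interaction results ignore this. A fit with a replicate block within each age is given only as an alternative. At 300 days the correlations were 0.198, 0.216 and 0.0838, and that alternative fit carried a block at this age too.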

Additional observations from a re-analysis of the deposited data

Results flagged for a closer look

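The age change of 25 of the 79 members differed between magnum and uterus by the interaction test of the limma fit. Of the 14883 genes tested, 1.61% had a uterus change called above that of the magnum. A difference in the effect of age between 2 tissues is what drew attention to the 25 members. The genes were chosen for a magnum difference with a steady uterus mean, so the count describes the choice and is no separate evidence.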

How the results depend on the processing

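With 3 libraries a group and few reads for some members in the older magnum, folds of the lowest genes depend on the pseudocount. Over single named genes, 340 alternative values kept direction and side of the threshold, 36 no longer passed, 2 newly passed and none changed direction. The number of genes meeting the rule was 1840 with library totals, 15 with FPKM values and 1 added to the 300-day mean, which exceeds most members' level there, and 66 with nothing added, of which 59, 13 and 57 were members. It was 41 with the narrower uterus window and 20 with a fold of 8, and 62 to 118 when 1 library was left out. With 1 library left out, calls of the members ranged from 55 to 78 for the magnum and 60 to 73 for the segments at 300 days. They ranged from 0 to 2 for the uterus above or below the magnum at 120 days, and from 7 to 57 for the interaction. The interaction count was 79 with library totals and 9 with no filter. It was 17 with the replicate block over all libraries and 47 with the replicate block within each age. At 120 days 1 member, gene5696, was called lower in the uterus with FPKM at a pseudocount of 0.1 and 1, again gene5696, with a pseudocount of 10. Alternatives chosen after seeing the data left out both young libraries numbered 1, which gave 53 interaction calls and 1 member higher in the older uterus, or both numbered 2, which gave 9 interaction calls and 1 member, gene23865, higher in the uterus at 120 days. The interaction uses all 4 groups, so a fit of only the groups compared was not made for it. The block changed no other call count by over 1.5 times. The share of all genes called was not counted for the alternatives, so their call counts are not read as particular to the members. Except where stated, the cause was not tested.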
